A study of Mus musculus with 6 samples.

Results

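Lmx1b encodes a LIM homeodomain transcription factor, and it was described here together with the genes that feed into it and the proteins it can share a complex with: the ectodermal genes Wnt7a and En1, the paralog Lmx1a, the LIM homeodomain genes Lhx2 and Lhx9, the LIM-domain-binding cofactor genes Ldb1 and Ldb2, and the LIM-only genes Lmo1 and Lmo4. The members were all probe sets whose platform annotation gave exactly 1 symbol equal to one of these 10 genes. There were 18 of them among 45037 probe sets tested, 4 for Lhx9, 3 each for Wnt7a and Ldb2, 2 for Lmx1b and 1 for each of the other 6 genes. Messenger RNA came from hindlimb buds of mouse embryos of the 129Sv strain at E11.5 (embryonic day), from 3 Lmx1b -/- pools and 3 wild-type pools. Each pool joined both hindlimb buds of 3 embryos, 6 buds in all, and RNA was taken from about 500 µm of proximal tissue. The study asked which genes LMX1B controls in the hindlimb bud. The labels do not describe how the null allele was made, and no other allele or agent is named for either group.

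In the vertebrate limb, WNT7A is secreted by dorsal ectoderm and switches on Lmx1b in the mesenchyme beneath it, where LMX1B specifies dorsal fate. EN1 in ventral ectoderm represses Wnt7a there. LIM homeodomain factors act through LDB cofactors, which bind their LIM domains and bridge them into larger complexes, and LIM-only proteins, which bind the same cofactors but have no homeodomain, can compete for them. In limb mesenchyme Lhx2, Lhx9 and Lmx1b are known to act together in outgrowth.

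The pools are bulk tissue, so fewer cells of a type and less RNA per cell cannot be told apart. Dorsal and ventral tissue and ectoderm were not separated per the labels. Limb mesenchyme markers were bright, with all 6 above the median of the array, and they included the hindlimb selector genes Tbx4 and Pitx1. Tbx5, the forelimb counterpart, read 4.21, 3.99 and 4.23 in null pools and 3.92, 4.40 and 4.49 in wild-type pools, below the array median in all 6. Values are given on the log2 scale as the authors' RMA values. To describe how dim a probe set was, its brightness was set beside 83 probe sets for olfactory, vomeronasal and taste receptor genes, which sensory epithelia express. Those had a median of 2.82 and a 95th percentile of 4.29.

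The sequences that accompany the results are promoter windows from RefSeq, build GRCm38.p6, from 250 bases before to 50 after a transcript's start, 5′ to 3′. Of the 10 genes, 9 had at least 1 window, 15 windows in all, and Ldb2 had none in the table used. They were searched on both strands for TAAT, the core letters that many homeodomain proteins recognise, and for the palindrome TAATTA, which holds TAAT on both strands. The motifs were chosen after the expression values had been seen. The windows of Lmx1b, of Lmo1, the gene with the largest change after Lmx1b, and of its LIM-only relative Lmo4 are shown, at the start that lies farthest upstream where a gene has several, with TAAT on either strand in capitals. Lmo1 has 2 windows and Lmo4 has 3.
Lmx1b chr2:33641049-33641348 (- strand): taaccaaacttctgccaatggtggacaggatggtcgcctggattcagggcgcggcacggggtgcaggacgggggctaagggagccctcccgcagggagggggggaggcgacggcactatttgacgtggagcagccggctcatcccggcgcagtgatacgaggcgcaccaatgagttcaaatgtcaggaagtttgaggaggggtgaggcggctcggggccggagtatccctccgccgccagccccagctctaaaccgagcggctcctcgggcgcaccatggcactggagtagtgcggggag
Lmo1 chr7:109175158-109175457 (- strand): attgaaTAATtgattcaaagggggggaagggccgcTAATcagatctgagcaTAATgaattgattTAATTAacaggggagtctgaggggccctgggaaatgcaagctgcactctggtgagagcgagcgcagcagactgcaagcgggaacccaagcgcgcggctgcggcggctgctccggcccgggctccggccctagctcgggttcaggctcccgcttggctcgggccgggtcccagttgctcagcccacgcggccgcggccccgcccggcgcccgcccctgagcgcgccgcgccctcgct
Lmo4 chr3:144205206-144205505 (- strand): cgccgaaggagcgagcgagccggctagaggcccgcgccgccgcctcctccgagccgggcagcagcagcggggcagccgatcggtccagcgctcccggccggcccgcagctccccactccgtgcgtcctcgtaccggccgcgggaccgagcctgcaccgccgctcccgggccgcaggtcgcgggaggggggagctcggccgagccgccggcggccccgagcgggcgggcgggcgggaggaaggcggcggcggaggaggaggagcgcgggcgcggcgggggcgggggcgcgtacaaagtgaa
TAATTA was found in the windows of 1 gene of the 9, Lmo1, 186 bases before the start shown and also in its other, overlapping window. That is 2 of the 15 member windows (13.3%), which share 1 site, and 5.29% of the 32851 windows in the table hold it. TAAT was found in 7 of the 15 member windows (46.7%), from 5 of the 9 genes, and in 58% of all windows. The windows of Lmx1b, Wnt7a, Lhx2 and Lmo4 held neither. Such a match is a description of the letters, not of binding.

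Lmx1b itself fell in the null pools, and of the 18 probe sets 1 passed an adjusted p of 0.05, its brighter one. That probe set, 1441729_at, read 4.62, 4.23 and 4.57 in null pools 1 to 3 and 8.02, 7.58 and 8.17 in wild-type pools 1 to 3. The highest null pool lay about 3 log2 units below the lowest wild-type pool, so the groups were far apart. Means were 4.47 ± 0.21 in null and 7.93 ± 0.31 in wild-type pools (SD, n = 3 each), a change of -3.45 (SE 0.16, 95% interval -3.83 to -3.08) or 10.9-fold, with a limma adjusted p of 0.000544. In the null pools its mean was above 81 of the 83 chemosensory probe sets and at percentile 43.3 of the array. The value there was low, although above the chemosensory 95th percentile of 4.29, and the fold is inexact. The other Lmx1b probe set, 1421769_at, read 3.94, 4.03 and 3.80 in null pools against 3.95, 3.86 and 3.97 in wild-type pools. It was dim in both groups and overlapped completely, with a change of -0.01 (95% interval -0.19 to 0.17). The stretch of transcript that each of them reads is not known here, so the dim one checks nothing about the allele.

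**Figure D1:**
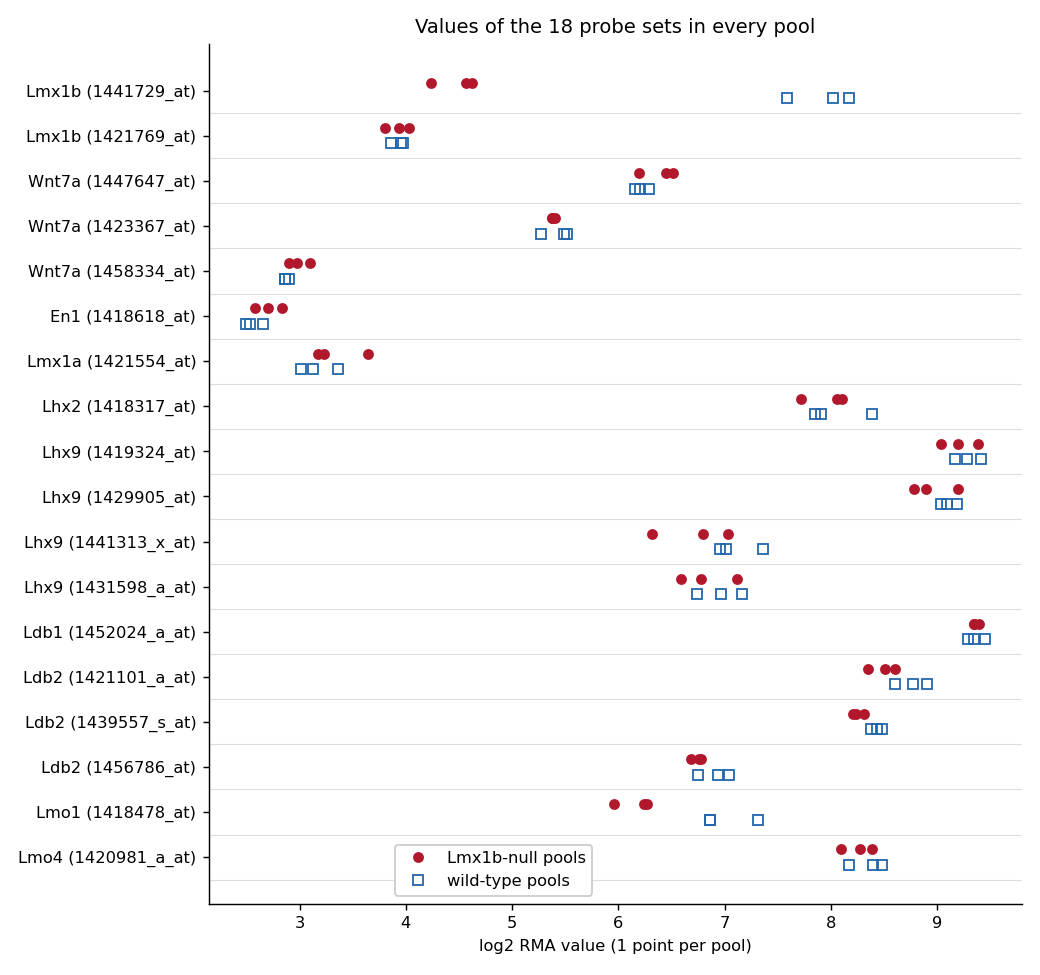
Log2 RMA value (x axis) of each of the 18 probe sets (rows) in every pool, with Lmx1b-null pools as filled red circles and wild-type pools as open blue squares, 3 each. The bright Lmx1b probe set separates the groups widely and Lmo1 separates them by a smaller gap, while most rows overlap.

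The call was 1 of 18 probe sets where 0.0844% of all probe sets tested were called and 0.0622% were called lower, and the gene it belongs to is the one that is mutated. None of the 16 probe sets of the other 9 genes passed limma's test, and 3 of them had an unadjusted p under 0.05, all lower in null pools. Counting Lmx1b, 4 of 18 (22.2%) were under that unadjusted threshold, where 9.41% of all probe sets were and 4.2% were lower. Groups did not overlap in 3 of 18 (16.7%), 1 each for Lmx1b, Lmo1 and Ldb2 and all lower, beside 14.4% of all probe sets in either direction and 5.78% lower. The median change over the 18 was -0.09 and that over all probe sets 0.01, and 14 of 18 (77.8%) were lower in null pools where 44.5% of all were. Probe sets of 1 gene read the same RNA and are not independent. At the standard errors of these probe sets, 0.07 to 0.18, a change of 0.53 to 1.47 would have been needed to reach the p-value of the last probe set called.

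**Figure D2:**
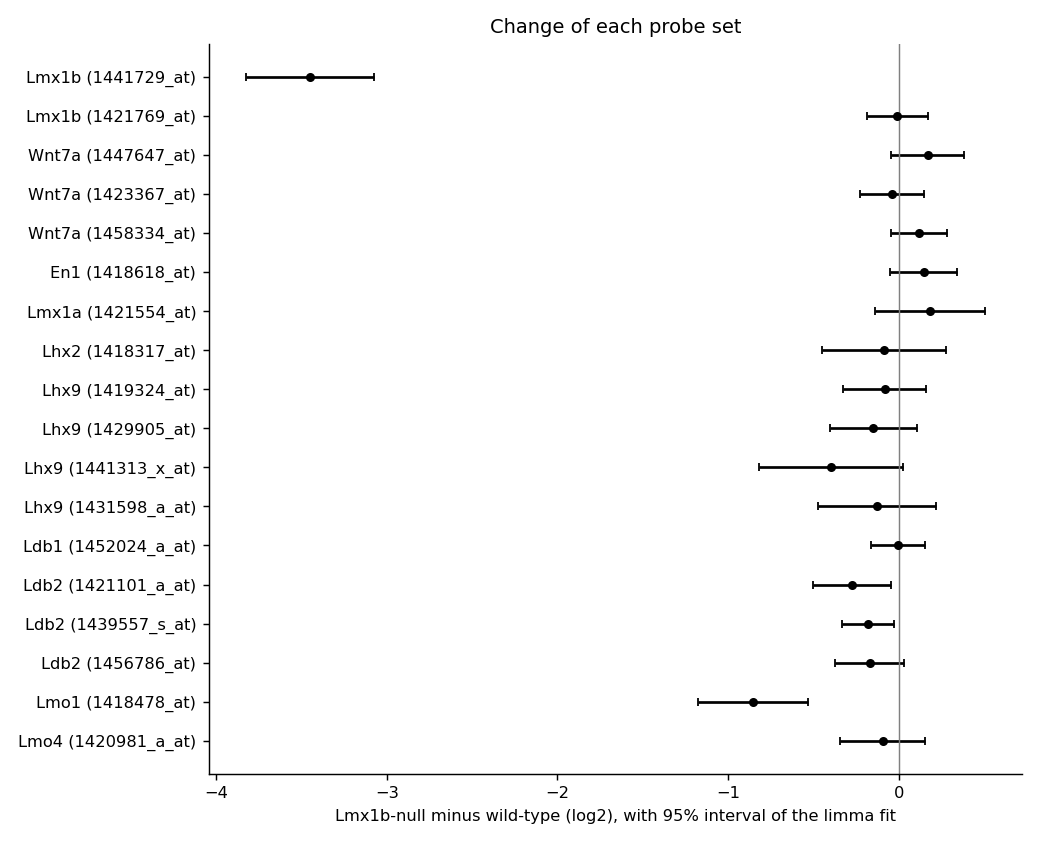
Change of each of the 18 probe sets (rows), in log2 units as Lmx1b-null minus wild-type (x axis), with the 95% interval of the limma fit from 3 pools a side. Intervals for Lmx1b (-3.83 to -3.08), Lmo1 (-1.18 to -0.53) and 2 of the 3 Ldb2 probe sets lie below 0, before any adjustment for the number of probe sets.

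Wnt7a, the secreted signal of dorsal ectoderm, was measured above the dim range by all but 1 of its 3 probe sets, and none of the 3 passed. The brightest, 1447647_at, read 6.45, 6.20 and 6.51 in null pools and 6.20, 6.16 and 6.29 in wild-type pools. Null pools 1 and 3 lay above every wild-type pool, and null pool 2 lay among them. The change was 0.17 (95% interval -0.05 to 0.39, limma adjusted p = 0.606). Probe set 1423367_at read 5.38, 5.37 and 5.41 in null pools, inside the wild-type range set by 5.27, 5.52 and 5.49, and changed by -0.04 (95% interval -0.22 to 0.15). The third, 1458334_at, lay in the dim range, where 48 of the 83 chemosensory probe sets were dimmer, at 2.90, 2.98 and 3.09 in null pools and 2.90, 2.86 and 2.86 in wild-type pools. Over the 3 probe sets the 95% intervals reached up to 0.39 (1447647_at) and down to -0.22 (1423367_at) on the log2 scale. These are unadjusted limits of single probe sets from 3 pools a side, not bounds for the gene.

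En1, the homeobox gene of ventral ectoderm, had 1 probe set, and it was dim, at percentile 9.44 of the array. It read 2.58, 2.83 and 2.71 in null pools and 2.54, 2.49 and 2.65 in wild-type pools. The groups overlapped, and 35 of the 83 chemosensory probe sets were dimmer. Its change of 0.15 (95% interval -0.05 to 0.34, limma adjusted p = 0.628) therefore describes a probe set with little signal in either group.

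Surface ectoderm was present in all pools as judged by its markers. Of 14 markers measured, among them the keratin genes Krt5 and Krt14 and the adhesion gene Epcam, 13 were above the array median, 11 were higher and 3 lower in null pools, and limma called none, with 2 at an unadjusted p under 0.05. Their summed linear values were 1578, 1525 and 1421 in null pools 1 to 3 and 1255, 1520 and 1456 in wild-type pools 1 to 3, so wild-type pool 1 stood lowest. Epcam (0.22), Krt19 (0.28) and Krt18 (0.14) had the smallest p of these, with limma adjusted p of 0.4, 0.402 and 0.546. Of the wild-type pools, pool 1 was lowest for 1 of the 4 Wnt7a and En1 probe sets (1423367_at), highest for another (1458334_at) and between the others for the remaining 2. Probe set 1458334_at and that of En1 were dim (percentiles 16.6 and 9.44), so the order of pools in them means little. The part of ectoderm content in the Wnt7a and En1 values was not tested.

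Other ectodermal signals and ridge factors did not pass either. Of 12 measured, 8 were higher and 4 lower in null pools, with a median change of 0.06, and 2 had an unadjusted p under 0.05. Bmp4, a BMP ligand gene of ectoderm and mesenchyme, was the smallest in p, at 8.43, 8.34 and 8.24 in null pools and 8.62, 8.51 and 8.71 in wild-type pools (change -0.28, SE 0.08; limma adjusted p = 0.37). Its groups did not overlap. Fgf8, the apical ridge growth factor gene, was at 4.87, 5.04 and 4.89 in null pools and 4.45, 4.63 and 4.87 in wild-type pools (0.28, adjusted p = 0.493). The null values of Fgf8 lay higher but the lowest of them, 4.87, met the highest wild-type value. Sp8, a ridge transcription factor gene, was dim and changed by 0.21 (adjusted p = 0.592).

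A list of WNT receptors, co-receptors and nuclear factors, through which a WNT such as WNT7A is read, also held the feedback gene Axin2. It held Wls and Porcn too, which act in WNT secretion, and 21 of its 22 genes were measured. In null pools 15 were higher and 6 lower, with a median of 0.07, and limma called none. Without Wls and Porcn, a choice made after seeing the data, 14 of 19 were higher and 5 lower, with Axin2 (0.19) still among the higher. The 3 of 21 with an unadjusted p under 0.05 were all frizzled receptor genes and all higher. Of all probe sets, 9.41% were under that threshold. Other frizzled genes, named after their values were seen, went the other way. They were Fzd6 (-0.33), with the widest change of the list, and Fzd3 (-0.10; limma adjusted p = 0.608 and 0.712). Fzd4 read 7.80, 7.77 and 7.86 in null pools and 7.40, 7.69 and 7.54 in wild-type pools (0.27, SE 0.08; limma adjusted p = 0.41). Its remaining probe sets changed by 0.10 and 0.11. Fzd1 changed by 0.22 and Fzd10 by 0.16 (adjusted p = 0.453 and 0.527). Wild-type pool 1 was lowest of the 6 pools over this list too, with a summed linear value of 11851 against 12552 to 12787 in the rest.

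Lmx1a, the paralog of Lmx1b, known from the roof plate and midbrain dopamine neurons, lay in the dim range in both groups. It read 3.64, 3.17 and 3.23 in null pools and 3.37, 3.01 and 3.12 in wild-type pools. Pool 1 of each group was the high one, and the groups overlapped. The change was 0.18 (95% interval -0.14 to 0.51, limma adjusted p = 0.719), and 56 of the 83 chemosensory probe sets were dimmer.

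Lhx2 and Lhx9, the LIM homeodomain genes of limb mesenchyme, were bright and differed more among pools of 1 group than between the groups. Lhx2 read 8.06, 8.11 and 7.72 in null pools and 8.38, 7.85 and 7.90 in wild-type pools. Wild-type pool 1 was highest and null pool 3 lowest, while null pools 1 and 2 lay above wild-type pools 2 and 3. The change was -0.09 (95% interval -0.45 to 0.28, limma adjusted p = 0.9), and its sign turned when either wild-type pool 1 (0.082) or null pool 3 (0.034) was left out.

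Lhx9 was lower in null pools in the mean of all 4 probe sets, none past the threshold. Probe set 1419324_at read 9.20, 9.38 and 9.04 in null pools and 9.41, 9.17 and 9.29 in wild-type pools (change -0.08), and 1429905_at read 8.90, 9.20 and 8.79 against 9.19, 9.04 and 9.10 (change -0.15). In both, null pool 2 lay with or above the wild-type pools and null pool 3 was lowest. Probe set 1431598_a_at read 6.59, 7.12 and 6.78 in null pools and 7.16, 6.74 and 6.97 in wild-type pools (change -0.13). The widest change was that of 1441313_x_at, whose suffix marks probes that can match other transcripts. It read 6.80, 7.04 and 6.32 in null pools and 7.36, 7.01 and 6.96 in wild-type pools, a change of -0.39 (95% interval -0.82 to 0.03, limma adjusted p = 0.553). Null pool 3 lay farthest below the wild-type range there, and without it the change was -0.19.

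The 5 probe sets of Lhx2 and Lhx9, 4 of them of Lhx9, shared part of their order across pools. In all 5, wild-type pool 1 was the highest wild-type pool and null pool 2 the highest null pool. The lowest null pool was pool 3, except in 1431598_a_at, where it was pool 1. The order was not particular to these genes, since Lmo1 was also highest in wild-type pool 1 and null pool 2 and lowest of the null pools in pool 3. Genes of the distal bud, where Lhx2 and Lhx9 are known to be strongest, were also highest in null pool 2 among null pools. Among wild-type pools they took a different order, with pool 1 lowest. The mean of 8 distal genes was 7.22, 7.38 and 7.16 in null pools and 6.95, 7.13 and 7.26 in wild-type pools. Of these 8, 5 were higher and 3 lower in null pools, and limma called none, with 1 at an unadjusted p under 0.05. That one, Dusp6, an FGF feedback gene, changed by 0.22, Hoxd13, an autopod Hox gene, by 0.44 and Etv5, an FGF-responsive factor gene, by 0.24 (limma adjusted p = 0.485, 0.547 and 0.562). The mean of 4 proximal bud genes was 9.21, 8.84 and 9.17 in null pools and 9.05, 8.99 and 8.99 in wild-type pools, so null pool 2 was lowest there. Meis2, a proximal homeobox gene, changed by 0.18, Irx5 by 0.08 and Meis1 by 0.01 (adjusted p = 0.584, 0.879 and 0.976). The part of the level of dissection in the Lhx2 and Lhx9 values was not tested.

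**Figure D3:**
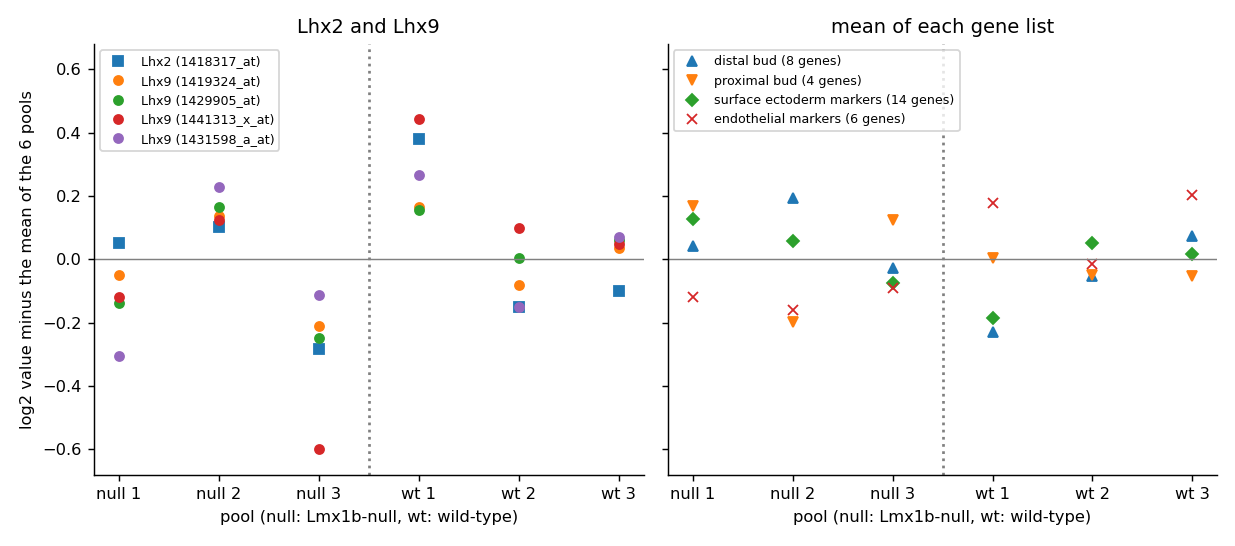
Log2 value minus the mean of the 6 pools (y axis) in each pool (x axis) for the Lhx2 and Lhx9 probe sets (left) and for the mean of 4 gene lists (right). On the left, wild-type pool 1 and null pool 2 are the highest of their groups for all 5 probe sets. On the right, distal genes are highest in null pool 2 and lowest in wild-type pool 1.

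Other LIM homeodomain genes, most of them known from neurons, were mostly dim, with 6 of 8 below the array median. In null pools 6 were higher and 2 lower, the median change was 0.06, and limma called none, with 0 at an unadjusted p under 0.05. Isl1, also a gene of posterior hindlimb mesenchyme, was at percentile 87.3 of the array and Isl2 at 55.1, and these were the 2 above its median. Isl1 read 8.45, 8.21 and 8.36 in null pools and 8.09, 8.28 and 8.24 in wild-type pools (0.14, limma adjusted p = 0.653). Null pool 2 lay within the wild-type range of Isl1. Lhx1 changed by 0.19 and Lhx5 by -0.13, both in the dim range.

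Ldb1, the main LIM-domain-binding cofactor gene, differed between the groups by less than the spread between pools. It read 9.39, 9.35 and 9.35 in null pools and 9.35, 9.29 and 9.46 in wild-type pools. The null values lay inside the wild-type range, and the change of 0.00 had one of the narrowest intervals of the members, -0.16 to 0.16 (limma adjusted p = 0.996).

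Ldb2, the second cofactor gene, was lower in null pools in all 3 probe sets by a small amount that did not pass. Probe set 1421101_a_at read 8.51, 8.35 and 8.60 in null pools and 8.60, 8.77 and 8.91 in wild-type pools. The highest null pool met the lowest wild-type pool. The change was -0.27 (95% interval -0.50 to -0.04), with an unadjusted p of 0.0256 and a limma adjusted p of 0.464. Probe set 1439557_s_at separated the groups narrowly, at 8.24, 8.21 and 8.31 in null pools and 8.38, 8.44 and 8.48 in wild-type pools (change -0.18, 95% interval -0.33 to -0.03, adjusted p = 0.468). The third, 1456786_at, read 6.68, 6.78 and 6.76 in null pools and 6.94, 6.74 and 7.04 in wild-type pools (change -0.17, adjusted p = 0.592), and wild-type pool 2 lay among the null pools.

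Ldb2 is also known from endothelium, and endothelial markers were lower beside it. All 6 measured were lower in null pools, where 44.5% of all probe sets were, with a median of -0.18. Limma called none, with 2 at an unadjusted p under 0.05, a threshold that 9.41% of all probe sets met. Tek, the angiopoietin receptor gene, changed by -0.65, the VEGF receptor gene Kdr by -0.22 and the adhesion gene Pecam1 by -0.19 (limma adjusted p = 0.089, 0.525 and 0.54). The smallest fall was that of Cdh5, named after its values were seen, at -0.06 (adjusted p = 0.922). Its null pools lay inside the wild-type range. The summed linear values of the 6 were 613, 596 and 626 in null pools and 742, 651 and 761 in wild-type pools. Those sums did not overlap, but without Tek, a setting chosen after seeing the data, they did, at 552, 533 and 561 in null pools and 628, 556 and 673 in wild-type pools. The part of endothelial content in the Ldb2 values was not tested.

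Lmo1, a LIM-only gene best known from the nervous system and from leukaemia, had the largest change of the members after Lmx1b. Its 1 probe set, 1418478_at, read 6.24, 6.27 and 5.96 in null pools and 7.31, 6.86 and 6.87 in wild-type pools. Every null pool lay below every wild-type pool, and wild-type pool 1 stood highest. Means were 6.16 ± 0.17 in null pools and 7.01 ± 0.26 in wild-type pools (SD, n = 3 each), a change of -0.86 (SE 0.14, 95% interval -1.18 to -0.53), or 1.81-fold lower. It ranked 111 of 45037 by p and did not pass, with an unadjusted p of 0.000282 and a limma adjusted p of 0.113. At its standard error a change of 1.12 would have been needed. Without wild-type pool 1 its change was -0.71 and the adjusted p 0.105, and over all alternatives the adjusted p ran from 0.056 to 0.347.

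Neural markers are given beside Lmo1 because of its known expression. Of 7, 6 were below the array median on average over the 6 pools, 5 were higher and 2 lower in null pools, and limma called none, with 1 at an unadjusted p under 0.05. That one was Dcx, the microtubule-binding protein gene doublecortin of young neurons, at 5.62, 6.76 and 6.43 in null pools and 8.34, 8.19 and 7.90 in wild-type pools (change -1.87, SE 0.26; limma adjusted p = 0.0691). Its groups did not overlap, and its other 3 probe sets changed by -0.87 to -0.16. Tubb3, a neuronal tubulin gene, changed by 0.13 and Pax6 by 0.09. The summed linear values of the 7 were 143, 214 and 181 in null pools and 413, 387 and 334 in wild-type pools, and Dcx made up this gap. Without Dcx, a sum chosen after seeing the data, the other 6 came to 93, 105 and 95 in null pools and 89, 95 and 95 in wild-type pools, with 5 of them higher and 1 lower in null pools. The part of neural content in the Lmo1 value was not tested.

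Lmo4, a LIM-only gene with broad expression, did not separate the groups. It read 8.09, 8.28 and 8.39 in null pools and 8.40, 8.17 and 8.48 in wild-type pools. Wild-type pool 2 lay within the null range, and the change was -0.09 (95% interval -0.34 to 0.15, limma adjusted p = 0.824).

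Among the remaining LIM-only genes and LDB complex proteins, 3 of 6 were higher and 3 lower in null pools, with a median of -0.06, and none passed. Ssbp4, of the single-stranded DNA-binding proteins that stabilise LDB1, read 8.32, 8.10 and 8.33 in null pools and 8.07, 8.07 and 8.03 in wild-type pools (0.19, SE 0.08; limma adjusted p = 0.506). Its groups did not overlap and it was the 1 gene of the list with an unadjusted p under 0.05. Its relative Ssbp2 changed by -0.12 and Rlim, the ubiquitin ligase gene that targets LDB proteins, by -0.15 (adjusted p = 0.612 and 0.642). The other 3 probe sets of Ssbp2 changed by -0.28 to -0.19 and the other 4 of Rlim by -0.15 to 0.06. Lmo2, the LIM-only gene of blood and endothelium, was named after its values were seen: it read 7.17, 7.34 and 7.10 in null pools and 7.16, 7.23 and 7.23 in wild-type pools, and its change was 0.00.

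Over the 6 partner and pathway lists together, 59 of 61 genes were measured, limma called none, and 7 (11.9%) had an unadjusted p under 0.05, 6 higher and 1 lower in null pools. That share is near the 9.41% of all probe sets under the same threshold. Their median change was 0.06. Of the marker lists not described with a member, limb mesenchyme had 2 of 6 genes higher and 4 lower in null pools, muscle precursors 4 of 5 higher and 1 lower, and erythroid cells 1 higher and 1 lower. Limma called none of these, with 1, 2 and 0 at an unadjusted p under 0.05. Tbx4 changed by -0.29, Twist1 by 0.14 and Prrx1 by -0.13, and the muscle genes Lbx1, Myod1 and Myog changed by 0.32, 0.51 and 0.44 in their brightest probe sets. The other probe set of Lbx1 changed by 0.09 and that of Myod1 by 0.01.

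**Figure D4:**
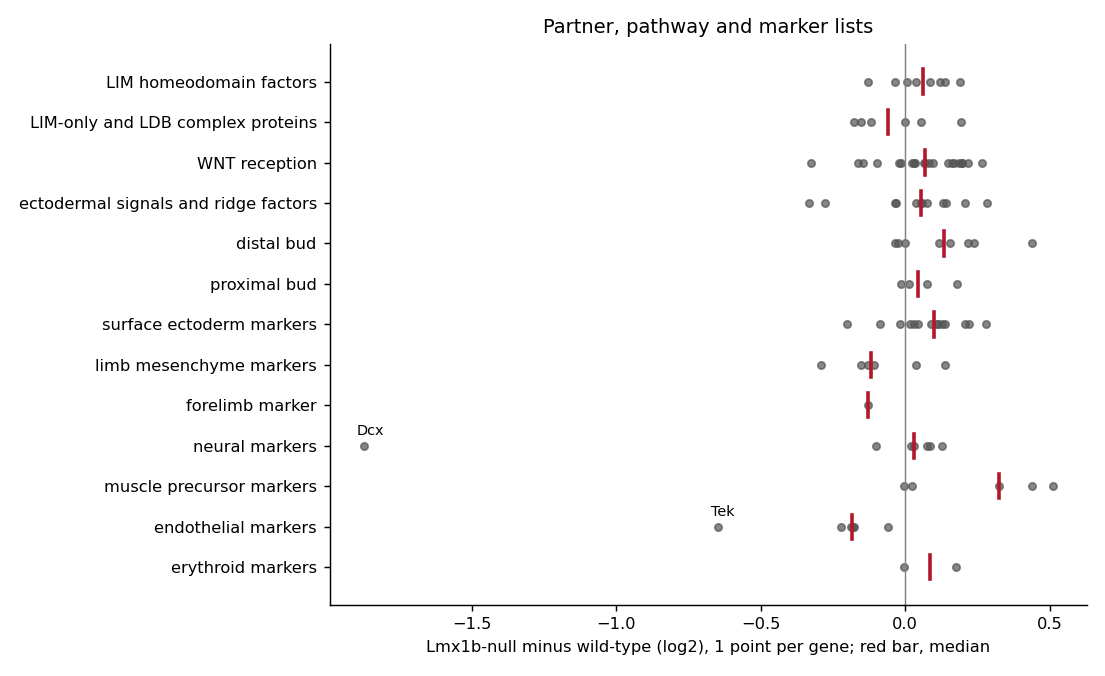
Change of each gene, in log2 units as Lmx1b-null minus wild-type (x axis), in the partner and pathway lists and in the marker lists (rows), with 1 point per gene at its brightest probe set and the median in red. Medians of the 6 partner and pathway lists lie between -0.06 and 0.14, and Dcx (-1.87) and Tek (-0.65) stand apart in the marker lists.

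The genes whose values across the 6 pools were most like those of Lmx1b were sought among 10994 bright genes by the root mean square difference between profiles, each centred on its own mean. The nearest was Calb2, the calretinin gene, at 0.43 log2 units, against a median of 1.74 over all of them. It read 4.90, 5.26 and 4.71 in null pools and 7.89, 8.59 and 8.46 in wild-type pools. Next were Rpgrip1 (0.66), Stk25 (0.87), Dcx (0.94) and Cnmd (0.94). Rpgrip1, a photoreceptor cilium gene, entered by 1 probe set, and its other 3 changed by -0.04 to 0.22. The change was -3.36 for Calb2, near that of Lmx1b, but -4.62 for Rpgrip1, -1.78 for Stk25, -1.87 for Dcx and -1.76 for Cnmd, so only the nearest gene had a change of like size. None of the other 9 members was among these 5. For a gene that changed as much as Lmx1b, this difference depends mainly on the size of the other gene's change. The median of 1.74 is near what a gene without any change gives. The largest change among the other 9 members was -0.86 (Lmo1), so their absence follows from the size of their changes and says nothing more.

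**Figure D5:**
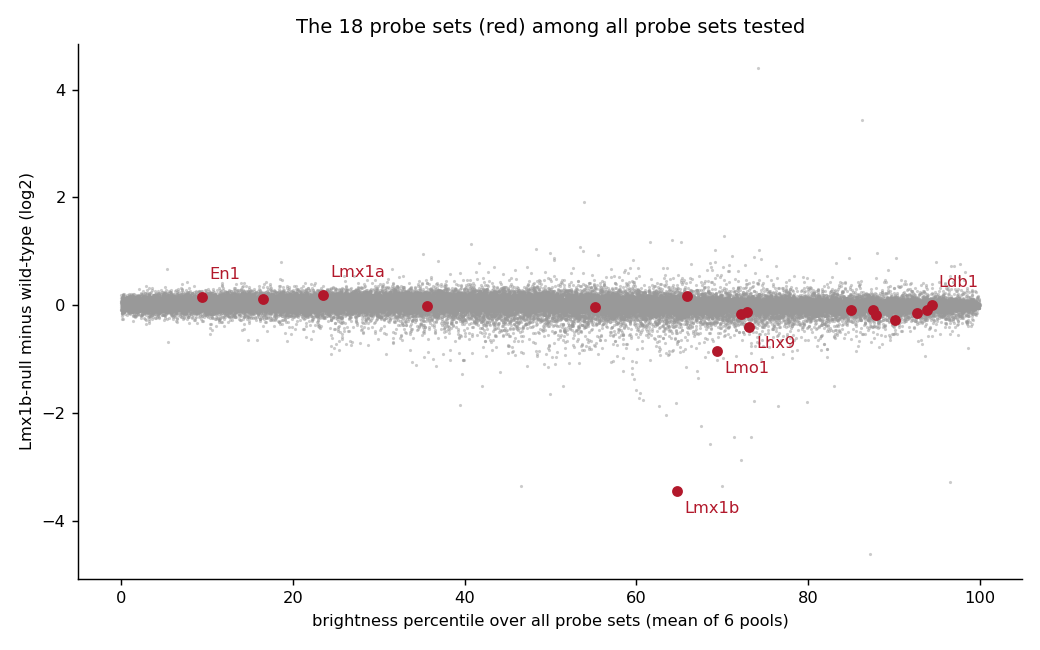
Change of every probe set tested (grey), in log2 units as Lmx1b-null minus wild-type (y axis), against its brightness percentile over all probe sets (x axis), with the 18 members in red. Lmx1b (-3.45) stands far below the cloud, Lmo1 (-0.86) at its lower edge, and En1 and Lmx1a at its dim end.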

How the data were processed

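The authors deposited log2 values, 1 for each probe set on each array, from RMA as the submitters' processing notes say, without a version. RMA corrects background, normalizes between arrays and summarises probes. The base of the logarithm was inferred from the range of about 2 to 14. Normalization hides a shift of most transcripts, and RMA compresses folds of dim probe sets. Of 45101 probe sets, 64 controls were left out. Medians per array ran from 4.96 to 4.99 and correlations between arrays from 0.993 to 0.997. The number of arrays limits the precision.

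All 45037 probe sets were fitted with limma 3.58.1 in R 4.3.3 (lmFit, eBayes without trend or robust option). Two-sided p-values were adjusted over all of them by Benjamini-Hochberg, with a threshold of 0.05. With 3 pools a side an exact permutation test cannot go below 0.1, so limma's p is given. Other genes were described at their brightest probe set. Named in each list were genes past the threshold or, failing that, up to 3 with the smallest p. Members and lists were chosen with earlier results of these data known. The script was tested on simulated data. The 15 alternatives covered normalization, variance model, filter, threshold, a pool block and leaving out each pool.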

Additional observations from a re-analysis of the deposited data

How the results depend on the processing

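The bright Lmx1b probe set passed under all 15 alternatives, with a change of -3.62 to -3.33 and a limma adjusted p of 6.06e-05 to 0.00658, and the count of member probe sets past the threshold was 1 and that of partner and pathway genes 0 under each of them. No other member passed under any. With the pool number as a replicate block, Lmx1b was at -3.45 (adjusted p = 0.000364) and Lmo1 at an adjusted p of 0.127. The deviations of pools with the same number correlated at -0.239, -0.0878 and -0.168 over all probe sets. The labels do not say whether such pools share a litter or a day, and these correlations cannot decide it. Signs turned for 5 of the 18 members, in settings where their adjusted p was 0.866 or above. Ldb1 was at 0.017 after repeated quantile normalization and 0.020 with array weights, and at -0.038 to 0.043 with 1 pool left out. The dim Lmx1b probe set was at 0.018 with array weights and at -0.059 to 0.054 with 1 pool left out. Lhx2 ranged from -0.18 to 0.082, Lhx9 probe set 1419324_at from -0.17 to 0.0034 and Wnt7a probe set 1423367_at from -0.11 to 0.0094 with 1 pool left out. Among members that kept their sign, leaving out 1 pool moved the change by over 1.5 times for Lhx9 probe sets 1429905_at (-0.27 to -0.060), 1431598_a_at (-0.27 to -0.0050) and 1441313_x_at (-0.55 to -0.19), Wnt7a 1447647_at (0.11 to 0.26) and 1458334_at (0.066 to 0.16), En1 (0.083 to 0.21), Lmx1a (0.037 to 0.28), Ldb2 1456786_at (-0.25 to -0.10) and Lmo4 (-0.18 to -0.013). Lmo1 came nearest to the threshold with an intensity trend (0.056). Over all probe sets 38 were called, against 94 with an intensity trend, 69 with array weights, 99 at an adjusted p under 0.1, 20 among bright probe sets, 19 at 1 probe set per gene, 14 with the block and 13 to 38 with 1 pool left out. The cause of these differences was not tested.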
